A study of Mus musculus with 6 samples.

Results

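Astrocytes, the star-shaped glial cells of the brain and spinal cord, were followed here through 10 marker genes: Gfap, Aqp4, Slc1a2, Slc1a3, Gja1, Aldoc, Glul, S100b, Fgfr3 and Aldh1l1. Every probe set whose single gene symbol in the platform annotation was one of these was taken, which gave 33 probe sets among the 45137 non-control probe sets of the 2 array types. Array type A held 24 of them, covering all 10 genes, and array type B held 9, covering 4 genes (Gfap, Aqp4, Slc1a2 and Slc1a3). The annotation named 18193 genes in all. Another probe set on B carried the symbol of Slc1a2 together with that of a second gene and was left out.

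The arrays measured total RNA of mouse lumbar spinal cord, taken at postnatal day 27 from segments L3 to L5. Each RNA pool held 3 cords and was hybridised once to each array type as a separate labelled extract. In the labels 2 pools, called pool 1 and pool 2, are Egr3-deficient, that is, from mice lacking the immediate early transcription factor Egr3, and 1 pool is wild type. The sources used here do not give strain, sex or the deleted part of Egr3. Acclimatization is recorded as a treatment for pool 2 and for wild type, and not for pool 1. The series title concerns fusimotor neurons, the motor neurons that innervate muscle spindles. There was no second wild-type pool, so the spread within that genotype was not measured. An exact permutation test of 2 pools against 1 cannot reach 0.05, and every test below is limma's, fitted across all probe sets of an array type.

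Facts of the whole series bear on how the values read. Egr3 itself read 24.9 and 52.7 in pools 1 and 2 against 40.6 in wild type on A, and 209.6 and 107 against 75.3 on B, so the pools are called by their labels. Skeletal muscle markers summed to 6443 and 7549 in pools 1 and 2 against 1199 on A, with 14 of 17 under the filter intensity in wild type. Liver markers summed to 356 and 9455 against 149.3, with 9 of 10 under it. The sums of nuclear-retained noncoding RNAs (Malat1, Meg3 and Neat1) went the other way. They were 685 and 1955 against 5585 on A, and 1444 and 3926 against 7188 on B. After normalization all 3 genes lay below wild type in both pools on A. On B 2 of them did, and 1 lay above it in both. For the 18S ribosomal RNA control, signal at the 3' end over that at the 5' end was 2.27 and 1.08 against 0.0493 on A, and 1.43 and 0.945 against 0.0605 on B. The part of these differences between pools in the astrocyte values was not tested.

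Astrocytes regulate water and potassium at the vessel wall, take up glutamate released at synapses and turn it into glutamine, and share small molecules through gap junctions. Aqp4 encodes their water channel, Slc1a2 (GLT-1) and Slc1a3 (GLAST) the glutamate transporters, and Glul glutamine synthetase. Gja1 encodes connexin 43, Gfap the intermediate filament protein that increases when astrocytes react to injury, and Aldoc and Aldh1l1 metabolic enzymes. S100b encodes a calcium-binding protein and Fgfr3 a growth factor receptor. Several of these are not exclusive: oligodendrocytes are known to express Glul and S100b, and meningeal cells Gja1.

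Of the 10 genes, Aqp4 was the one whose readings lay furthest below wild type on both array types, and it passed the test on B. A probe set of Slc1a2 also passed on B, and its call rested mainly on pool 1. Gja1 lay below wild type with all its probe sets in both pools on A, whereas Gfap and 1 probe set of Aldh1l1 lay above it. None of these passed on A. The genes thus did not move as 1 block: of the 23 member probe sets that reached the filter on A, 13 were below wild type in both pools, 6 above it in both and 4 divided, where 34.8% of all tested probe sets were below in both and 47.9% above in both. Gja1 gave 6 of the 13 below on A, and Aqp4 gave 2. On B, after normalization, 5 of the 6 member probe sets past the filter were below in both pools, beside 36.6% of all. None was above in both, beside 38.9%. Slc1a2 gave 3 of the 5 below on B. In the deposited intensities on B, 3 of the 6 were below in both and 1 above, beside 41.2% and 34.9% of all. The median log2 difference of the members was -0.20 on A, where all kept probe sets had a median of 0.11, and -0.45 on B, where that median was near 0 (6.3e-05).

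**Figure D1:**
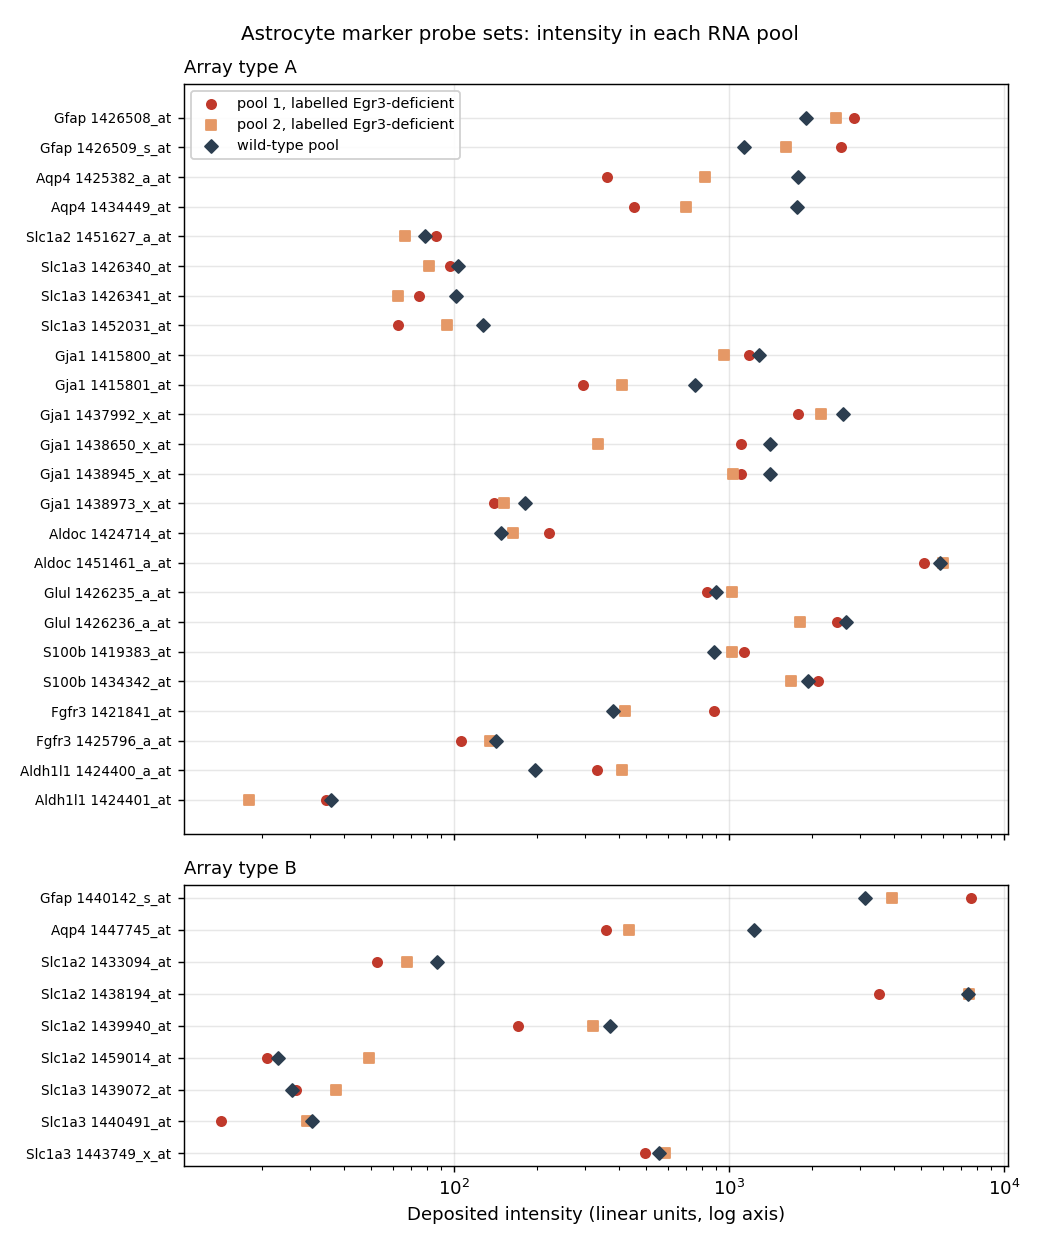
Deposited intensity (linear units on a log axis) of each of the 33 astrocyte marker probe sets, 24 on array type A (top) and 9 on array type B (bottom), with 1 point per RNA pool and no error bars because each pool was hybridised once to an array type. The 3 Aqp4 probe sets have pool 1 lowest, pool 2 next and wild type highest, and the 3 Gfap probe sets have the reverse order.

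Differences are on the scale of log2(intensity + 16) after quantile normalization within the array type, always Egr3-deficient minus wild type, and understate the change of dim probe sets. The filter kept probe sets at or above the 40th percentile of the mean log2 value, equal to an intensity of 36.7 on A and 55.9 on B. It passed 23 of 24 member probe sets on A and 6 of 9 on B. The call threshold was a Benjamini-Hochberg adjusted p of 0.05 over all 13576 or 13507 probe sets tested. By this rule 0.0663% of all tested probe sets were called higher and 0.0% lower on A, and 1.02% higher and 0.607% lower on B. Of the members 0 were called on A, although 5 were lower and 2 higher at an unadjusted limma p under 0.05, beside 12.7% lower and 7.93% higher among all. On B 2 of 6 were called, both lower, and at an unadjusted limma p under 0.05 the members were the same 2, beside 6.83% lower and 7.4% higher among all.

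Aqp4, the water channel of astrocyte endfeet, had mean differences close to each other in its 3 probe sets, although pools 1 and 2 differed between themselves. Probe set 1425382_a_at on A read 359.6 and 819 in pools 1 and 2 against 1787 in wild type. Probe set 1434449_at on A read 451, 698.5 and 1774 in the same order. On B, probe set 1447745_at read 356, 434 and 1239. In all 3, the wild-type pool was highest and pool 1 lowest, and both pools labelled Egr3-deficient were at least 2-fold below wild type. That separation was shared by 4.35% of all tested probe sets on A and 1.8% on B.

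On B the Aqp4 probe set fell by 1.84 on the log2 scale (SE 0.42, limma adjusted p = 0.0115), with -1.98 in pool 1 and -1.70 in pool 2. Against wild type this is 3.57-fold lower. On A the 2 probe sets had log2 differences of -1.79 (SE 0.45, limma adjusted p = 0.161) and -1.74 (SE 0.32, adjusted p = 0.158) and did not pass, although their size was close to that on B. Of all tested probe sets, 0.884% and 1.01% were as low as these on A, and 0.496% on B. The spread between pools 1 and 2 was an SD of 0.84 and 0.46 on A and 0.20 on B. Under median centring both probe sets on A passed, with limma adjusted p values of 0.00416 and 0.00598, and the one on B did not. That setting called 4.4% of all tested probe sets lower and 1.67% higher on A. The call on B held in 6 of 11 alternatives and was lost under median centring, without quantile normalization, on scaling by shared probe sets, with no filter and without the intensity trend (limma adjusted p from 0.171 to 0.455). Under the last 3 of these limma called none of all probe sets tested on B, and without quantile normalization it called 2. In bulk RNA, fewer astrocytes and less RNA per astrocyte cannot be told apart. The order of Aqp4 (pool 1, pool 2, wild type) was also that of the summed nuclear-retained RNAs above. It was shared by 28.7% of all tested probe sets on A and 27.9% on B.

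Slc1a2, the main glutamate transporter of mature astrocytes, had 1 probe set on A and 4 on B, and these disagreed. On B, 1438194_at read 3513 and 7489 in pools 1 and 2 against 7384 in wild type. Only pool 1 was clearly lower, and pool 2 lay at 1.01 times the deposited wild-type value. After quantile normalization its log2 difference was -1.88 in pool 1 and -0.48 in pool 2, a mean of -1.18 (SE 0.32, limma adjusted p = 0.0403); pool 2 was thus below wild type only after normalization. The call held in 4 of 11 alternatives. Without quantile normalization the mean difference was -0.52 (limma adjusted p = 0.799), and with pool 1 left out the remaining difference was -0.48, with no test. The SD between the pools, 0.99, was more than the SE, because the prior across probe sets sets most of the SE on B.

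A second probe set on B, 1439940_at, had no call and read 171 and 320.2 against 369.8 (log2 difference -0.63, SE 0.46, limma adjusted p = 0.588). It shared the order of 1438194_at only after normalization, since pool 2 was highest in the deposited readings of 1438194_at. The dimmer 1433094_at read 52.7, 67.6 and 87.1 (-0.26, adjusted p = 0.932). In the readings of both 1439940_at and 1433094_at, pool 1 was lowest and wild type highest. The other readings did not share this order. On B 1459014_at read 20.9, 49.03 and 22.9 and stayed under the filter. On A 1451627_a_at read 86.2, 66.7 and 78.7, with a difference of 0.050 (SE 0.35, limma adjusted p = 0.944) that turned to -0.042 without quantile normalization. Wild type lay between the other pools in both.

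Slc1a3, the glutamate transporter shared with radial glia, had 3 probe sets on A and 3 on B. On A, 1426340_at read 96.9, 81.2 and 104, 1426341_at read 74.9, 62.6 and 102, and 1452031_at read 62.8, 94.6 and 128 in pool 1, pool 2 and wild type. The deposited wild-type value was the highest in all 3, but the lower of the other pools changed between probe sets. Their log2 differences were -0.098, -0.39 and -0.52, with SEs of 0.338, 0.342 and 0.345 and limma adjusted p values from 0.4004 to 0.884. On B, 1443749_x_at read 494, 587 and 558, a difference of -0.20 (SE 0.42, limma adjusted p = 0.905) whose sign turned to 0.12 under median centring. The other B probe sets, 1439072_at (26.6, 37.3 and 25.9) and 1440491_at (14.3, 29.2 and 30.4), were under the filter. Slc1a3 therefore had no call and no common order across array types.

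Glul, which converts glutamate into glutamine, had 2 probe sets on A. Probe set 1426235_a_at read 836, 1027 and 898, and 1426236_a_at read 2483, 1818 and 2671. Wild type lay between the other pools in the first and above both in the second. The differences were -0.045 (SE 0.27, limma adjusted p = 0.934) and -0.48 (SE 0.23, adjusted p = 0.274), and the first turned positive under each of the 3 other scalings (0.043 to 0.16).

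Gja1, the gap junction protein connexin 43, had 6 probe sets on A, the most of any member, and in all 6 the deposited value was highest in wild type, as for 37.5% of all tested probe sets on A (41.2% on B). The widest separation shared by both pools was in 1415801_at, which read 295 and 409.6 against 756. Its log2 difference was -1.11 (SE 0.31, limma adjusted p = 0.164), and 6.58% of all tested probe sets were as low. The lowest mean difference, -1.33 (SE 0.56, adjusted p = 0.234), belonged to 1438650_x_at, which read 1102, 335 and 1411. There pool 2 alone was far below, with -2.12 against -0.54 in pool 1. The suffix x marks probe sets whose probes may match other transcripts.

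The other 4 Gja1 probe sets lay closer to wild type. 1415800_at read 1188, 959.7 and 1287, and 1437992_x_at read 1785, 2165 and 2589.9. Probe set 1438945_x_at read 1108, 1038 and 1410.3, and 1438973_x_at read 139.5, 152 and 181. Their log2 differences were -0.40, -0.57, -0.53 and -0.20, with limma adjusted p values from 0.223 to 0.727. Between the 6 probe sets of this gene the difference thus ran from -1.33 to -0.20, and it stayed below 0 in each under every alternative scaling and pseudocount tried. Which of the pools was lower changed among the 6, with pool 1 lower in 3 and pool 2 in 3.

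Gfap, the filament protein of fibrous and reactive astrocytes, read higher in both pools labelled Egr3-deficient with all 3 probe sets before normalization, as did 44.2% of all tested probe sets on A and 34.9% on B. On A, 1426508_at read 2843, 2442 and 1907, and 1426509_s_at read 2564, 1607 and 1131, in pool 1, pool 2 and wild type. On B, 1440142_s_at read 7583, 3930.3 and 3136. Pool 1 was highest and wild type lowest each time. The log2 differences on A were 0.28 (SE 0.20, limma adjusted p = 0.446) and 0.72 (SE 0.28, adjusted p = 0.213), neither past the threshold. On B it was 0.26 (SE 0.30, adjusted p = 0.770), where quantile normalization placed pool 2 at -0.023 and pool 1 at 0.55. Under scaling by median centring that mean was 0.97, so the size on B depended on the scaling and its sign did not.

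Aldh1l1, a folate enzyme widely used as a general astrocyte marker, had 2 probe sets on A. The brighter, 1424400_a_at, read 333 and 407 against 197 in wild type, so both pools were above it. With a log2 difference of 0.90 (SE 0.31, limma adjusted p = 0.189) it was the highest of the members, and 4.31% of all tested probe sets were as high. It did not pass. The other, 1424401_at, read 34.2, 17.96 and 35.9, stayed under the filter and was not tested. Aldoc, a glycolytic aldolase also found in Purkinje cells, read 5123, 5985 and 5845 with 1451461_a_at, a difference of 0.019 (SE 0.15, limma adjusted p = 0.949). Its second probe set, 1424714_at, read 222, 164 and 148, a difference of 0.40 (SE 0.34, adjusted p = 0.512). Only the second had both pools above wild type.

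S100b and Fgfr3 each had 2 probe sets on A that differed in sign. For S100b, 1419383_at read 1131, 1023 and 883 (log2 difference 0.19, SE 0.24) and 1434342_at read 2115, 1677 and 1945 (-0.22, SE 0.21), with limma adjusted p values of 0.663 and 0.562. For the receptor gene Fgfr3, 1421841_at read 884, 419 and 378, so that both pools stood above wild type, pool 1 with a log2 difference of 1.14 and pool 2 with 0.17. The mean was 0.65 (SE 0.41, limma adjusted p = 0.381). The other Fgfr3 probe set, 1425796_a_at, read 106, 136 and 142 (-0.12, SE 0.33, adjusted p = 0.848). Neither gene had a common direction across its probe sets.

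**Figure D2:**
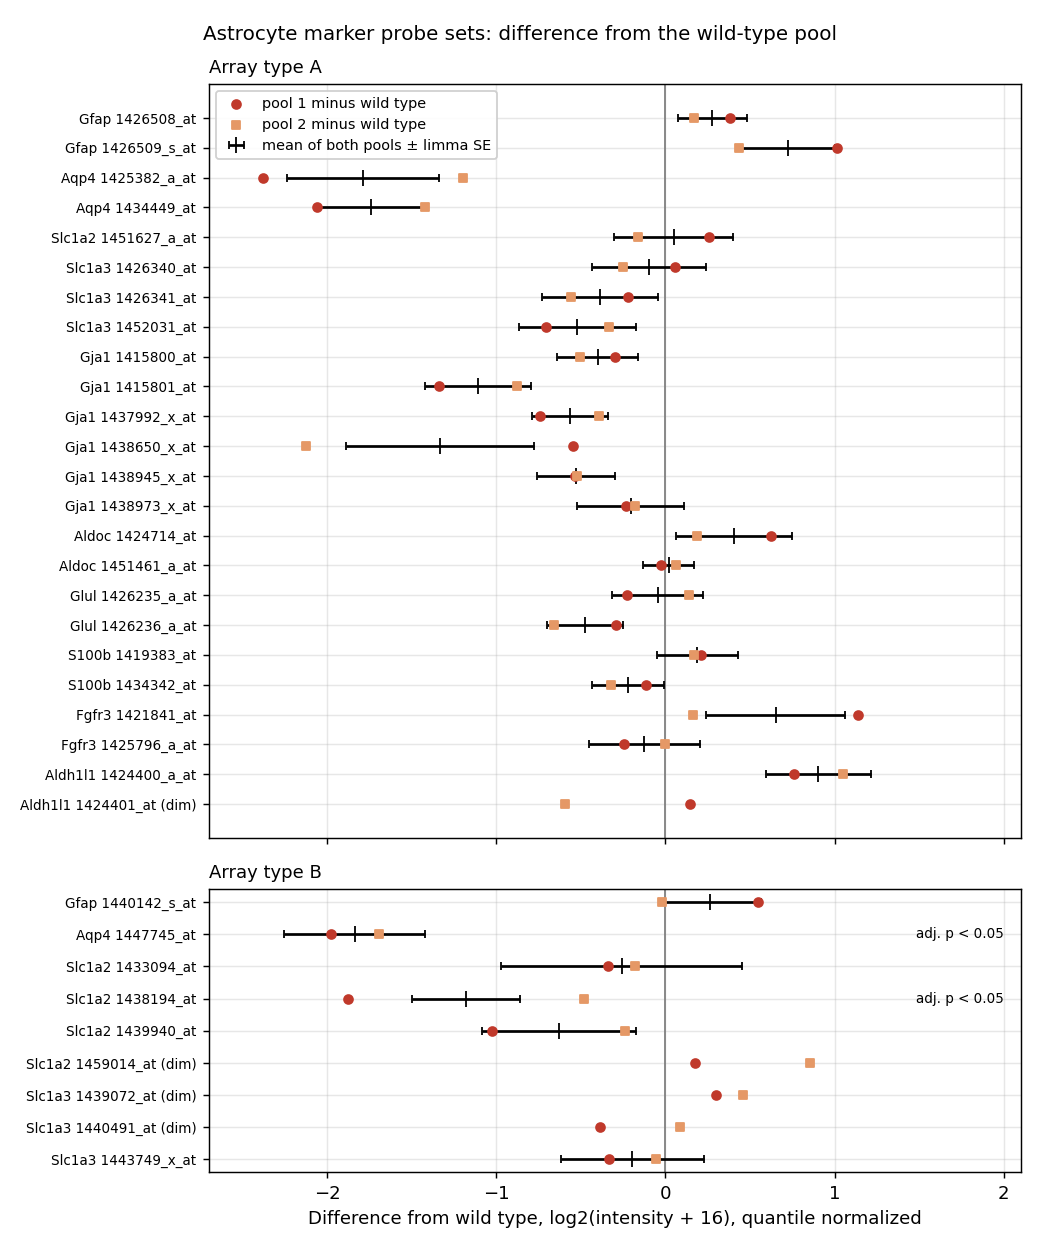
Difference from the wild-type pool on the log2(intensity + 16) scale after quantile normalization for the 33 astrocyte marker probe sets, with pool 1 (circles) and pool 2 (squares) shown separately. Vertical ticks with bars give the mean of both pools ± the limma SE for probe sets past the filter, and those under it are marked dim. The 2 probe sets with an adjusted p under 0.05, Aqp4 1447745_at at -1.84 and Slc1a2 1438194_at at -1.18, are both on B.

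**Figure D3:**
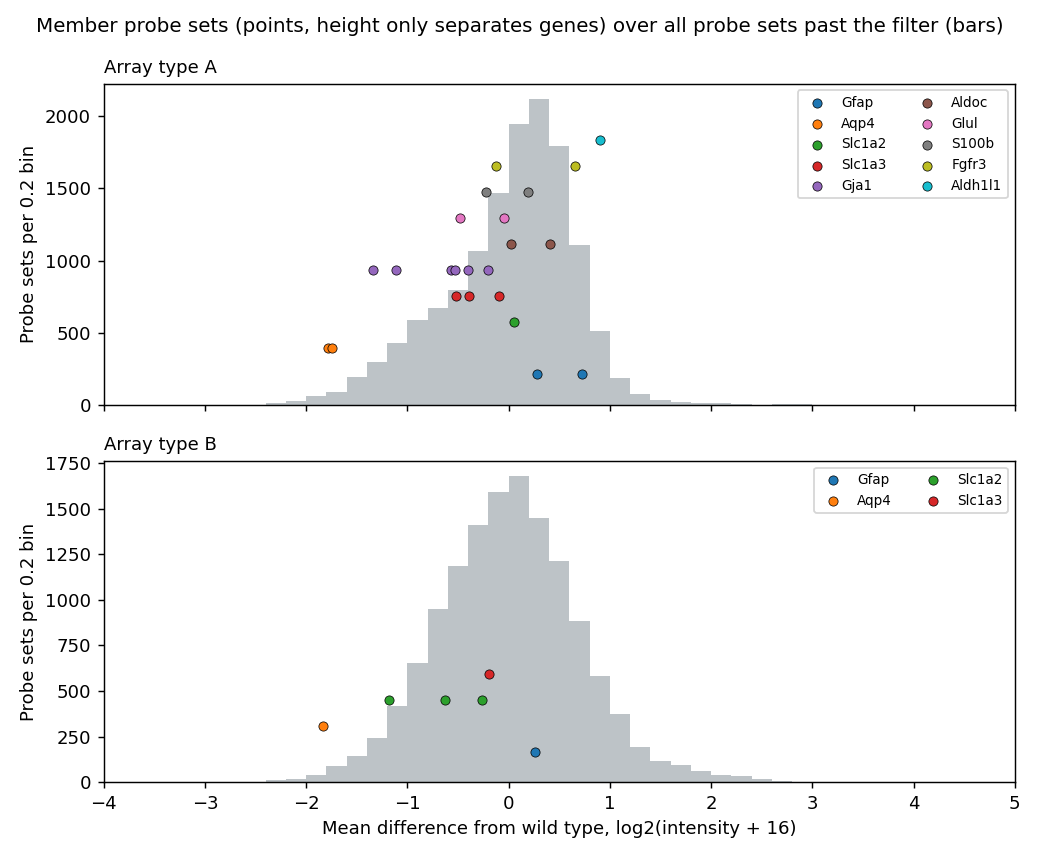
Mean difference from wild type of the member probe sets past the filter (coloured points, whose height only separates genes) over the number of all kept probe sets per bin of width 0.2 (grey bars), for array types A and B. Aqp4 lies in the lower tail on both array types, and most other members lie within the bulk.

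The bases just before the gene start are shown for Slc1a2, Gja1 and Gfap, whose readings are described above, and for Fgfr3, because it held the only match to the EGR letters. Sequences are from RefSeq (GRCm38.p6), 250 bases up to the start that RefSeq gives, and 9 of the 10 genes, all but Aqp4, matched the table with 11 promoters. EGR proteins are zinc finger factors that bind a GC-rich element. Capitals mark GCGNGGGCG (EGR), GGGCGG (the GC box, which can overlap it) and TATAAA, on either strand.
Slc1a2, chr2:102706188-102706437, plus strand: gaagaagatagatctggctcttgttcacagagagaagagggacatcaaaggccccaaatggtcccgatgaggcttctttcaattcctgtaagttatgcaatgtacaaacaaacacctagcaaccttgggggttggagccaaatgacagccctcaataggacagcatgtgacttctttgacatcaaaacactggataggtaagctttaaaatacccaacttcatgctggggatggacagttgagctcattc
Gja1, chr10:56377050-56377299, plus strand: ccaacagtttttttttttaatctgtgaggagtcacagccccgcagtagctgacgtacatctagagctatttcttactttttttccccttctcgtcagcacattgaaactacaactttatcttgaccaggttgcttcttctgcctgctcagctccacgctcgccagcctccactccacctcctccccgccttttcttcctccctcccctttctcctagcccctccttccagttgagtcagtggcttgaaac
Gfap, chr11:102897201-102897450, minus strand: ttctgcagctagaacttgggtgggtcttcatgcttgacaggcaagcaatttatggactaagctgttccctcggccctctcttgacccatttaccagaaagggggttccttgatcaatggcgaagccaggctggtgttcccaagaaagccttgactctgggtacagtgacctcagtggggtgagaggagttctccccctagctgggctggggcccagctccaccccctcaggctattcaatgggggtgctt
Fgfr3, upstream start, chr5:33721474-33721723, plus strand: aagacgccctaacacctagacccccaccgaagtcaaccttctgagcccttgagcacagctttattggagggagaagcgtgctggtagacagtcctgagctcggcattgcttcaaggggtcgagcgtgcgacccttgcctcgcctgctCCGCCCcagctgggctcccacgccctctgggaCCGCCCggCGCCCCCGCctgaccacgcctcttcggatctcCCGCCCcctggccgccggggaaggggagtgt

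The windows of Slc1a2, Gja1 and Gfap held none of the 3 motifs, which says only that these letters are not in these windows. That of Fgfr3 held the EGR letters on the minus strand from 63 to 55 bases before the start, and 3 GC boxes. Among all 32851 promoters of this length, 4.7% held the EGR letters, 32.7% the GC box and 12.4% TATAAA. Of the 11 promoters of the members, 1 held the EGR letters, 6 the GC box and 1 TATAAA. The GC content was 44.8% for Slc1a2, 55.6% for Gfap and 66.8% for this Fgfr3 window, where the median over all promoters was 52.4%. A match is a description of letters and no evidence of binding.

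A wider set of astrocyte genes was examined beside the members, in 4 groups of function and 1 of reactive astrocyte genes. None of their 78 kept probe sets on A and 28 on B was called by limma, beside the shares of calls given above; at an unadjusted limma p under 0.05, 12 were higher and 8 lower on A and 1 and 2 on B. Both pools exceeded wild type for 41 on A and lay under it for 20, and on B for 8 and 10. The medians were 0.19 on A and -0.068 on B. Among kept probe sets of these groups on A, those above wild type in both pools thus outnumbered those below, as among all probe sets, whereas the members had more below. Of the member probe sets below in both on A, 6 were of Gja1 and 2 of Aqp4. With the brightest probe set of each of the 10 member genes, 4 were below in both and 3 above.

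In the group for ion and water homeostasis, 8 of 15 kept probe sets on A exceeded wild type in both pools and 5 lay under it, with a median of 0.27. The lowest named by rule was Slc4a4, a sodium bicarbonate cotransporter, which read 94.9, 180.1 and 391 in pool 1, pool 2 and wild type on A (log2 difference -1.42, limma adjusted p = 0.161). On B it read 1713, 2277 and 2759 (-0.88, adjusted p = 0.194), the same order. Fxyd1, a sodium pump regulator, read 513, 551 and 274 on A, and Mlc1, an endfoot membrane protein, read 716, 520.5 and 296, with differences of 0.925 and 1.005. Dag1, the dystroglycan that anchors endfeet, read 168, 186 and 103.5 with 1456131_x_at (0.78). Other kept Dag1 probe sets on A had log2 differences of 0.034, 0.27 and 0.70. On B, Hepacam, an astrocyte adhesion protein, read 975, 658 and 485 with 1429023_at (0.55, adjusted p = 0.605). Its brighter probe set, 1434727_at, read 1974.5, 1630 and 1407 (0.023, limma adjusted p = 0.991). Fxyd1, Mlc1 and Dag1 1456131_x_at thus lay above the wild-type pool where Aqp4 and Slc4a4 lay below it, and none of these differences passed on A.

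For transmitter uptake and metabolism, 10 of 18 kept probe sets on A were above in both pools and 5 below (median 0.17). Phgdh, the first enzyme of serine synthesis, read 500.1, 544 and 298 and, with another probe set, 972, 853 and 526. Further kept Phgdh probe sets on A had log2 differences of 0.52 and 0.24. Slc25a18, a mitochondrial glutamate carrier, read 2789, 1788 and 914 on B (log2 differences of 1.20 in pool 1 and 0.81 in pool 2, limma adjusted p = 0.1498). Slc38a3, a glutamine transporter, read 103, 95.5 and 45.7 there (1.10, adjusted p = 0.469), while its kept probe set on A had a log2 difference of 0.099. Lower readings came from Dio2, the thyroid hormone deiodinase (26.8, 48.03 and 88.6 on A), and Glud1, glutamate dehydrogenase (1015, 982 and 1344). Another kept Dio2 probe set on A had a log2 difference of 0.077.

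Secreted and contact proteins had 8 of 15 kept probe sets above and 4 below on A (median 0.28), and 1 of 6 above and 3 below on B (-0.32). Fabp7, a fatty acid binding protein of radial glia and immature astrocytes, read 257, 348 and 869.6 on A (log2 difference -1.53, SE 0.31, limma adjusted p = 0.161). Both pools were far below wild type, and under median centring it passed (limma adjusted p = 0.0285), as did Slc4a4 (0.032) and Lcn2 (0.000334), in the setting that called 4.4% of all tested probe sets lower and 1.67% higher on A. The phagocytic receptor genes were also below, with Mertk at 69.9, 108 and 182 on A and Megf10 at 341, 467 and 701 on B. Clu, the secreted chaperone clusterin, read 1788, 1382 and 885 on A.

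Transcription factor probe sets were 4 of 13 above and 5 below on A (median -0.038) and 1 of 9 above and 5 below on B (-0.37). Id4 read 177, 230.4 and 450.2 on A (log2 difference -1.07, limma adjusted p = 0.168), and Nfia, a gliogenic factor, read 75.5, 119 and 198 on A and 287, 345 and 398 on B. Other kept Id4 probe sets on A had log2 differences of 0.00061 and -0.29. Other kept Nfia probe sets on B had 0.25 and -0.43. Nfib read 139, 149.8 and 272 with 1434102_at on B. Nfix, of the same family, lay above wild type on A with both named probe sets (480.3, 297 and 189; 214, 179 and 114). On B the sign of the group's median turned under median centring to 0.00065.

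Reactive astrocyte genes, the genes known to rise in astrocytes after injury, had 11 of 17 kept probe sets higher than wild type in both pools and 1 lower on A (median 0.19), and 2 of 7 above and 1 below on B (-0.023). Above in both pools compares with 47.9% of all tested probe sets on A. Lcn2, the secreted iron-binding protein lipocalin 2, read 210.4, 132 and 38.3 (log2 difference 1.84, SE 0.38, limma adjusted p = 0.161). Vim, the intermediate filament vimentin, read 667, 512 and 404, and Nes, nestin, 48.8, 77.6 and 36.2. Another Vim probe set on A had a log2 difference of -0.070. On B Osmr, the oncostatin M receptor, lay under wild type in both pools, at 76.9, 28.6 and 112 (-0.83, limma adjusted p = 0.694). Its kept probe set on A had a log2 difference of 0.17. None of these passed. Lcn2 is also known from liver and neutrophils. The liver markers summed to 356, 9455 and 149.3 in pool 1, pool 2 and wild type. The source of the Lcn2 signal was not tested.

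Relatives of the members lay on both sides of wild type. Of the other aquaporins, Aqp1 read 71.3, 77.1 and 41.7 on A (log2 difference 0.75, limma adjusted p = 0.245). Aqp6, a channel best known from kidney, read 271, 199 and 106 with 1447974_s_at on B (1.15, adjusted p = 0.213). Other kept Aqp6 probe sets on B ran from -0.19 to 1.11. Of the other transporters of the Slc1 family, 4 of 7 kept probe sets on A exceeded wild type in both pools and 0 lay under it, with Slc1a4 at 106, 89.7 and 64.4. Of the other connexins 4 of 7 were above on A and 2 below. Gjb1, the main connexin of oligodendrocytes, read 252, 169.6 and 121.5, while Gjc3, another glial connexin, read 30.05, 54.9 and 107 (log2 difference -1.001), the order of Aqp4. On B Gjc3 was also under wild type in both pools, at 157.5, 108 and 203 (-0.50). None of these passed.

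**Figure D4:**
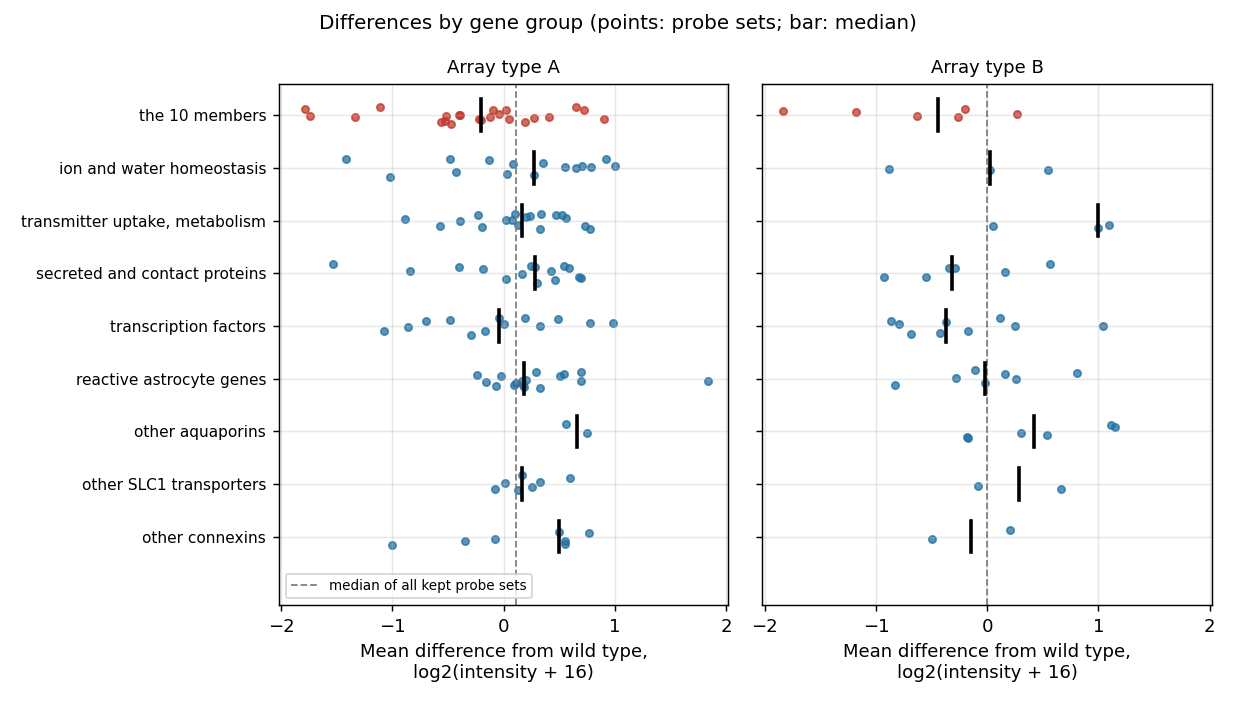
Mean difference from wild type on the log2(intensity + 16) scale for every kept probe set of the 10 members (red) and of each further gene group (blue), by array type. Black bars are group medians and the dashed line is the median of all kept probe sets, 0.11 on A and 6.3e-05 on B; the members' medians are -0.20 and -0.45.

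Markers of the other cell types in cord were summed over 1 probe set per gene, that with the highest mean. The astrocyte members themselves summed to 16200, 15760 and 17490 on A and 11950, 12440 and 12320 on B in pool 1, pool 2 and wild type, and the brightest probe set of every gene was at or above the filter intensity in each pool, which is no detection call. Neuronal markers summed to 13570, 14800 and 18530 on A, with 6 of 10 genes below wild type in both pools, and to 21960, 23290 and 20630 on B. Oligodendrocyte markers summed to 23510, 30200 and 38660 on A, with 4 of 7 below in both, and to 17700, 13860 and 11960 on B. Microglial markers summed to 2539, 2376 and 2045 on A, endothelial markers to 828, 821 and 748, and meningeal fibroblast markers to 4650, 6863 and 4065. Schwann cell markers summed to 6254, 8434 and 6074 on A and read 1723, 1293 and 2153 on B, and those of oligodendrocyte precursors to 4329, 3723 and 3602 on A, with 2392, 1289 and 1003 on B. Among these, the sums for ependyma and choroid plexus differed most, with pool 2 far above the others. On A they were 428, 2854 and 226, while B gave 733, 6825 and 161. Most of each pool 2 sum was 1 gene, Ttr. It read 150.5, 2408 and 23.96 with its A probe set, and 584.3, 6739 and 50.94 with its B probe set. Rarres2, summed on A, was also highest in pool 2 (109.8, 269.8 and 71.35). Kcnj13, the other gene summed on B, was lowest there (148.9, 86.33 and 109.8). Liver markers were also highest in pool 2, with sums of 356, 9455 and 149.3 on A. The source of the Ttr signal was not tested. The sums of neuronal and oligodendrocyte markers were ordered differently on the 2 array types. After normalization 3 of 5 neuronal genes on B were below wild type in both pools and 1 above. Of 3 oligodendrocyte genes on B, 1 was below in both and 1 above. The part of any of these cell types in the astrocyte differences was not tested.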

How the data were processed

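The deposited value tables hold a linear intensity for each probe set on each array. They were scaled by the authors, as found from the values: the mean after trimming 2% from each tail lay between 150.019 and 150.063 on all 6 arrays. The sources used here do not say how probes were summarised, and no detection calls were used. Median intensities were 50.3 to 60.1 on array type A and 76.2 to 91.8 on B, and precision is limited by the number of arrays. Gene symbols came from the platform annotation, updated by gene identifier through RefSeq (GRCm38.p6). Each array type was analysed alone: 64 control probe sets left out, log2(intensity + 16), quantile normalization, the 40th percentile filter, then limma 3.58.1 in R 4.3.3 (lmFit, eBayes with trend), 2 pools against 1, Benjamini-Hochberg adjusted. With 1 residual degree of freedom, the lone wild-type pool is taken to be as variable as the others, and the prior had 6.54 (A) and 52.3 (B) degrees of freedom. The p values thus rest on the spread between the 2 pools labelled Egr3-deficient and, with more degrees of freedom, on that prior across probe sets. They hold no measure of the spread among wild-type pools. The fit was tested on simulated data.

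The members, gene lists and tests were chosen with earlier results of these data known, so no list is given a test. All member probe sets are reported. In the further groups, probe sets past the threshold were to be named, and otherwise up to 4 per group and array type with the largest smaller-of-2 ratio in one direction; the text gives examples among these. Alternatives were other scalings, pseudocounts of 1 and 64, no filter and the 60th percentile, eBayes without trend or robust, adjustment over both array types, muscle and liver genes left out, and each pool labelled Egr3-deficient left out.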

Additional observations from a re-analysis of the deposited data

How the results depend on the processing

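Of the 316 alternative values of single member probe sets tested in both settings, 293 kept their direction and their side of the threshold. The filter, eBayes and adjustment alternatives leave the difference itself unchanged. In those settings only the side of the threshold could change, so the kept direction there holds no information. The 2 member calls on B became 1 with a pseudocount of 1 and with adjustment over both array types, where Aqp4 remained, and 0 without quantile normalization, under median centring, on scaling by the 100 shared probe sets, with no filter and without trend. Over all probe sets on B, where the count was 220, the calls in these 5 settings were 2, 141, 0, 0 and 0. On A the 0 member calls became 2 under median centring, both of Aqp4, and the 0 calls of the wider and reactive lists became 4 of 78, while the calls among all 13576 probe sets went from 9 to 824 (6.07%). The causes were not tested. The difference of Aqp4 ran from -2.19 to -1.45 on B and from -1.82 to -1.51 on A over the settings that keep both pools, and its limma adjusted p from 0.00273 to 0.455 on B and from 0.00416 to 0.337 on A. That of Slc1a2 1438194_at ran from -1.18 to -0.35. With either pool left out they ran from -1.98 to -1.70 (Aqp4 on B), -2.38 to -1.20 (Aqp4 on A) and -1.88 to -0.48 (Slc1a2).

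The members' median on A, -0.20, was -0.094 under median centring, -0.223 and -0.16 with pseudocounts of 1 and 64, 0.017 over gene means and -0.039 over the brightest probe set of each gene, and -0.25 to -0.23 with either pool left out. On B, -0.45 became -1.06 on shared scaling, where the median of all tested probe sets was -0.66, and ran from -0.68 to -0.21 with either pool left out. Signs turned, with no call on either side, for Slc1a2 1451627_a_at (-0.042 without quantile normalization, -0.042 on shared scaling), Aldoc 1451461_a_at (-0.078 and -0.077), Glul 1426235_a_at (0.043, 0.044 and, under median centring, 0.16), S100b 1434342_at (0.075 under median centring), Slc1a3 1443749_x_at (0.12 under median centring) and, under the filter, Slc1a2 1459014_at (-0.24) and Slc1a3 1439072_at (-0.39), both on shared scaling. Leaving out a pool leaves 1 against 1, a value with no test; the sign then turned in 7 of the 33 probe sets: Slc1a2 1451627_a_at (-0.16), Slc1a3 1426340_at (0.054), Slc1a3 1440491_at (0.084), Aldoc 1451461_a_at (-0.024), Glul 1426235_a_at (0.14), Aldh1l1 1424401_at (0.14) and Gfap 1440142_s_at (-0.023). On B the medians of the ion, aquaporin and Slc1 groups turned negative on shared scaling, and those of the transcription factor, reactive and connexin groups turned positive under median centring. No paired analysis was possible because the wild-type group holds 1 pool and the labels pair nothing.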
